A study of Mus musculus with 9 samples.

Results

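Dkk2 and 8 other genes of the Wnt pathway were followed in microglia, the macrophages that live in brain tissue, from mice that differed in human TREM2. Dkk2 was picked for its rise in microglia with the common variant of TREM2, so it was selected on the CV and KO values of these arrays, and those values are given as a description. The other 8 genes were Lrp5, Lrp6, Fzd7, Ctnnb1, Gsk3b, Axin1, Tcf7l2 and Axin2. They were listed for their place in the pathway, with earlier results of these data known. All 9 genes had a probe set of their own, out of 19938 genes with a probe set named for that gene alone. The comparisons ask whether other parts of the Wnt pathway differed between genotypes where Dkk2 did.

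The 9 mice were 8.5 months old, carried the 5XFAD transgenes, which drive amyloid deposition, and lacked murine TREM2, which on microglia senses lipids and apolipoproteins. In KO mice no human TREM2 was expressed. R47H mice expressed the R47H variant, a risk allele for late-onset Alzheimer's disease in people, and CV mice expressed the common variant. Each group held 3 mice, 1 female (mouse 1) and 2 males (mice 2 and 3), and each mouse gave 1 Affymetrix Gene ST array made from cells sorted as CD45+ CD11b+. How human TREM2 is driven in these mice, and whether any sort gate separated microglia from other CD11b+ cells, was not stated in the labels.

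Wnt proteins are secreted signals that bind Frizzled receptors together with the co-receptors Lrp5 and Lrp6. Without them a complex of Axin, Apc, Gsk3b and casein kinase 1 marks β-catenin, the product of Ctnnb1, for destruction. With them β-catenin accumulates and acts through TCF and LEF factors such as Tcf7l2, and Axin2 is a widely used target gene of that step. Dickkopf proteins are secreted and bind Lrp5 and Lrp6. Dkk1 is a known inhibitor, while Dkk2 is known to inhibit or to activate depending on the setting. In mouse models of amyloid deposition, Dkk2 is listed among the genes that disease-associated microglia induce in a TREM2-dependent stage.

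The 250 bases before the Dkk2 start are shown because Dkk2 is the gene on which the comparison turns, and because the TCF motif is the pathway's own readout in DNA. They lie at chr3:132085042-132085291 on the plus strand of GRCm38.p6, from RefSeq, and are printed 5′ to 3′ with the letters TATAAA in capitals, which begin 32 bases before the start.
Dkk2: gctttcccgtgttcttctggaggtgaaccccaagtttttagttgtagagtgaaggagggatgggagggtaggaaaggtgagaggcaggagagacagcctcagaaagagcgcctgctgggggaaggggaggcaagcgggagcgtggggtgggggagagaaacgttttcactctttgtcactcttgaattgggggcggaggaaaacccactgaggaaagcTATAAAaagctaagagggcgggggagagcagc
TCF and LEF factors bind sites close to CTTTGAT and CTTTGAA. Neither was found on either strand in this window or in any of the 8 windows that RefSeq gave for 6 of the 9 genes, and 3.21% and 4.46% of all 32851 such windows hold them. TATAAA was present in 4 of the 8 windows and in 12.4% of all windows, searched on both strands. These are matches of letters only, and a missing match says nothing of binding elsewhere.

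Values are log2 expression values as deposited, and array medians lay between 5.28 and 5.35. Probe sets bind with different strength, so levels are compared between mice and never between genes. Defining markers of microglia were far above the array median on every array: the mean of 7 of 8 listed markers that had a probe set, P2ry12 and Tmem119 among them, was 11.7 to 11.8 in KO, 11.6 to 11.7 in R47H and 11.5 to 11.6 in CV. Markers of other cells differed between mice. The mean of 13 neutrophil markers was 8.28 to 8.96 in CV and 6.45 to 7.37 in R47H, and 5.87, 6.21 and 8.96 in KO mice 1, 2 and 3, with Elane, Mpo and Cxcr2 too low on average to be tested. The mean of the 7 measured monocyte markers was 6.80 to 7.26 in CV, 5.59 to 5.83 in R47H and 5.52 to 6.78 in KO. The mean of the 7 measured oligodendrocyte markers was 7.23 to 7.59 in R47H, 5.995 to 6.81 in KO and 5.999 to 6.35 in CV. That of 8 astrocyte markers, with Gfap, Aqp4, Aldh1l1 and Gja1 too low to be tested, was 5.998 to 6.34 in R47H, 5.29 to 5.77 in KO and 5.25 to 5.45 in CV. In sorted bulk cells, fewer cells of a type and less RNA per cell cannot be told apart.

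**Figure D1:**
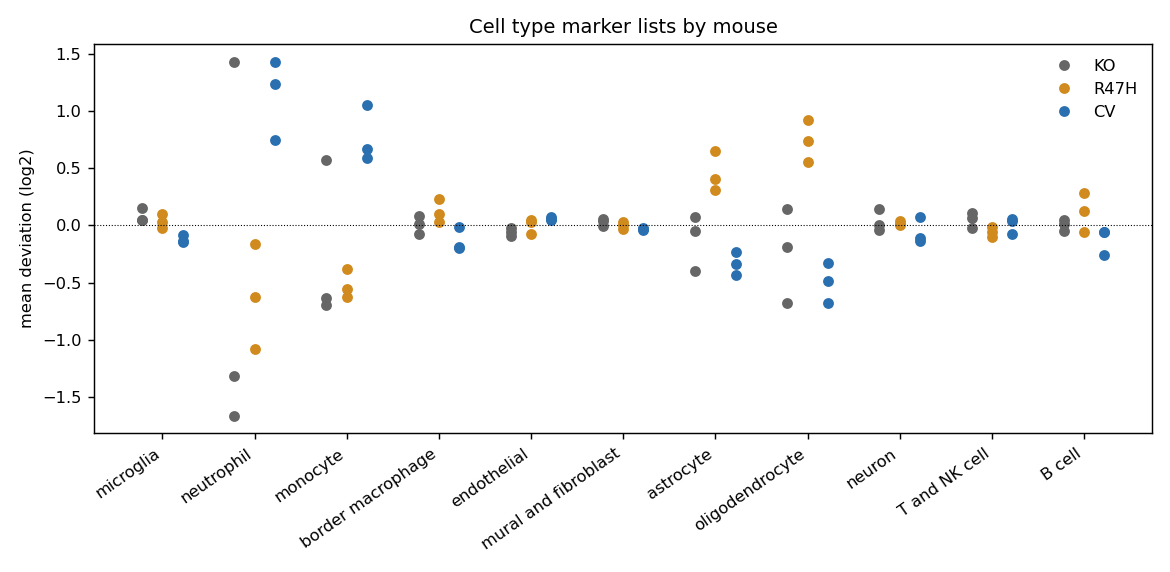
Mean deviation of each cell type marker list from its mean over the 9 arrays (log2), 1 point per mouse, coloured by genotype. KO mouse 3 lies with the CV mice on the neutrophil list, and the 3 R47H mice are the highest on the oligodendrocyte and astrocyte lists.

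Dkk2 was low in microglia without TREM2 and higher with either variant. The log2 values of its probe set (10496125) were 5.30, 5.27 and 5.15 in KO mice 1, 2 and 3, then 5.96, 5.62 and 5.58 in R47H, and 5.77, 5.93 and 5.92 in CV. Every R47H and every CV mouse lay above every KO mouse, and the R47H and CV mice overlapped. The lowest R47H mouse lay 0.28 and the lowest CV mouse 0.47 above the highest KO mouse, where the KO mice spanned 0.15. Group means were 5.24 ± 0.08 in KO, 5.72 ± 0.21 in R47H and 5.87 ± 0.09 in CV (SD, n = 3).

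The difference of Dkk2 from KO was 0.63 in CV (SE 0.10, 1.55-fold), which is the value that chose the gene and carries no test here. In R47H it was 0.48 (SE 0.10, 1.39-fold), with a 95% interval of 0.24 to 0.71. That did not pass over all genes (limma adjusted p = 0.225), and the KO arrays in it are the ones that helped to choose the gene. An exact two-sided permutation test of 3 against 3 mice cannot go below p = 0.10, the value it gave, so it could not have passed 0.05 and nothing is read from it. R47H minus CV was -0.15, with a 95% interval of -0.39 to 0.08, which does not bound a difference between the variants closely. The CV arrays in it helped to choose Dkk2, so this value is a description and carries no test. The R47H female had the highest Dkk2 of all 9 mice, and without it R47H minus KO was 0.35. The KO mean of Dkk2 lay below the level of 5.31 that a gene had to reach on average to be tested, so the gene passed that filter through the groups in which it was higher.

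Some marker lists of other cells also differed between KO and the groups in which Dkk2 was higher. The neutrophil mean was high in all CV mice and in KO mouse 3, whose Dkk2 value of 5.15 was the lowest of the 9. With the neutrophil score in the model the Dkk2 difference was 0.70 in CV, no longer called, and 0.47 in R47H. The mean of the 6 measured endothelial markers was 4.59 to 4.65 in KO, 4.603 to 4.72 in R47H and 4.72 to 4.75 in CV, so that all CV mice lay above all KO mice. Within that list only 2 of the 6 markers were higher in CV than in KO, and the median difference was -0.06. Flt1 stood at 1.55 and Pecam1 at -0.56 in CV minus KO, and Cldn5, Cdh5, Slco1a4 and Tek were below the filter. The mean of 9 mural and fibroblast markers was 4.59 to 4.65 in KO, 4.56 to 4.62 in R47H and 4.55 to 4.57 in CV. The part of endothelial RNA in the Dkk2 values was not tested. The part of oligodendrocyte and astrocyte RNA in the R47H value of Dkk2 was not tested.

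**Figure D2:**
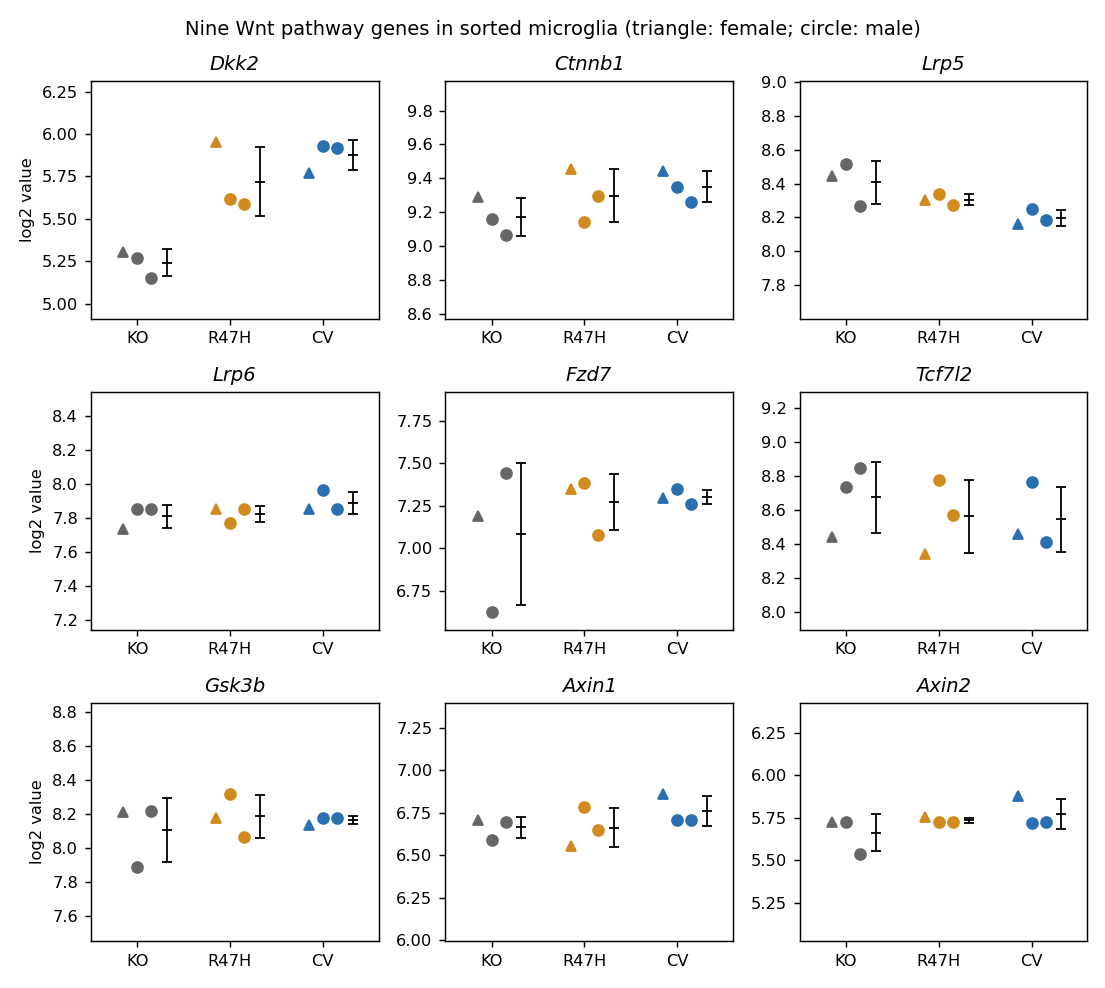
Log2 value of each of the 9 genes in every mouse, by genotype (triangles, females; circles, males), with the mean and SD over 3 mice beside each group; every panel spans the same range of 1.4. Dkk2 is the gene in which all R47H and CV mice lie above all KO mice, and in Fzd7 KO mouse 2 lies apart at 6.62.

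In CV minus KO, 1 of the 9 genes, Dkk2, was called, against 1.21% of all 10795 genes tested (limma, Benjamini-Hochberg adjusted p under 0.05). Since Dkk2 was picked on that contrast, nothing is read from this count. The call was lost without any 1 KO mouse, without CV mouse 2 or 3, with the neutrophil score and with only the compared groups. Of the other 8 genes 0 were called, and 2, Lrp5 and Ctnnb1, had an unadjusted p under 0.05, which 13.2% of all genes had. Groups did not overlap for 1 of these 8, Lrp5, against 14% of all genes. They did not overlap for Dkk2 either, but it was picked on this contrast, so nothing is read from that. In R47H minus KO 0 of 9 were called against 0.0834% of all genes. Of the 8 genes without Dkk2, 0 had an unadjusted p under 0.05 (limma), against 5.68% of all genes. Groups did not overlap for 0 of these 8, against 7.11% of all genes. Dkk2 met both conditions, but these KO arrays helped to choose it, so nothing is read from that. In R47H minus CV 0 of 9 were called against 0.797%, and 0 had an unadjusted p under 0.05, against 12.4%. Groups did not overlap for Lrp5, against 14.9% of all genes.

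The co-receptor Lrp5 (probe set 10464504), to which Dickkopf proteins bind, lay lowest in CV. Its log2 values were 8.44, 8.52 and 8.27 in KO, 8.31, 8.34 and 8.27 in R47H, and 8.16, 8.25 and 8.18 in CV. All CV mice lay below all others, by a narrow margin, and R47H overlapped with KO. The difference was -0.21 ± 0.08 (SE) in CV minus KO, with a 95% interval of -0.39 to -0.03, and it did not pass (limma adjusted p = 0.298). With the neutrophil score in the model it was -0.07. R47H minus KO was -0.10 ± 0.08 (adjusted p = 0.946).

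The paralogous co-receptor Lrp6 (10548701) was nearly flat. It read 7.73, 7.85 and 7.85 in KO, 7.85, 7.77 and 7.85 in R47H, and 7.85, 7.96 and 7.85 in CV, and 5 of the 9 arrays held exactly the same value. The groups overlapped, and CV minus KO was 0.08 (95% interval -0.08 to 0.24). R47H minus KO was 0.01 (95% interval -0.15 to 0.17).

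Fzd7 (10346607), a Frizzled receptor, varied most within KO. Its log2 values were 7.19, 6.62 and 7.44 in KO, 7.35, 7.39 and 7.08 in R47H, and 7.30, 7.35 and 7.26 in CV. The groups overlapped, and KO mouse 2 alone lay below the rest. CV minus KO was 0.22 ± 0.18 and R47H minus KO 0.19 ± 0.18 (limma adjusted p = 0.671 and 0.955). Without KO mouse 2 these differences were -0.019 and -0.048.

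The β-catenin gene Ctnnb1 (10590325) lay slightly higher in CV. It read 9.29, 9.16 and 9.07 in KO, 9.45, 9.15 and 9.30 in R47H, and 9.44, 9.35 and 9.26 in CV. CV and KO overlapped through the KO female, which read above CV mouse 3. CV minus KO was 0.18 ± 0.07 (95% interval 0.01 to 0.34, limma adjusted p = 0.333) and R47H minus KO 0.13 ± 0.07 (adjusted p = 0.907). Ctnnb1 encodes a protein whose amount is set largely by degradation, so its RNA does not measure pathway activity.

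The kinase gene Gsk3b (10435676), whose product phosphorylates β-catenin, did not separate the groups. It read 8.21, 7.88 and 8.22 in KO, 8.18, 8.31 and 8.06 in R47H, and 8.14, 8.18 and 8.18 in CV. CV minus KO was 0.06 (95% interval -0.18 to 0.30) and R47H minus KO 0.08 (-0.16 to 0.32). Without KO mouse 2, the lowest of the 9, they were -0.055 and -0.033.

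Axin1 (10442954), the scaffold of the destruction complex, read 6.71, 6.59 and 6.69 in KO, 6.55, 6.78 and 6.65 in R47H, and 6.86, 6.71 and 6.71 in CV. Its CV mice lay at or above the KO mice, with 1 KO and 1 CV mouse at the same value. CV minus KO was 0.10 (95% interval -0.10 to 0.29) and R47H minus KO -0.0027 (-0.20 to 0.19).

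The transcription factor gene Tcf7l2 (10464084) had overlapping groups too. It read 8.44, 8.74 and 8.85 in KO, 8.34, 8.77 and 8.57 in R47H, and 8.46, 8.76 and 8.41 in CV, with the female at or near the lowest of each group. CV minus KO was -0.13 (95% interval -0.38 to 0.12) and R47H minus KO -0.11 (-0.36 to 0.13).

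Axin2 (10382228), the target gene that many studies take as a readout of β-catenin signalling, read 5.73, 5.73 and 5.53 in KO, 5.75, 5.73 and 5.73 in R47H, and 5.88, 5.72 and 5.73 in CV. On 5 of the 9 arrays it held exactly the same value, and the groups overlapped. CV minus KO was 0.11 (95% interval -0.05 to 0.28, limma adjusted p = 0.571) and R47H minus KO 0.07 (-0.09 to 0.24, adjusted p = 0.956). The difference of Dkk2 from that of Axin2 was not tested.

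**Figure D3:**
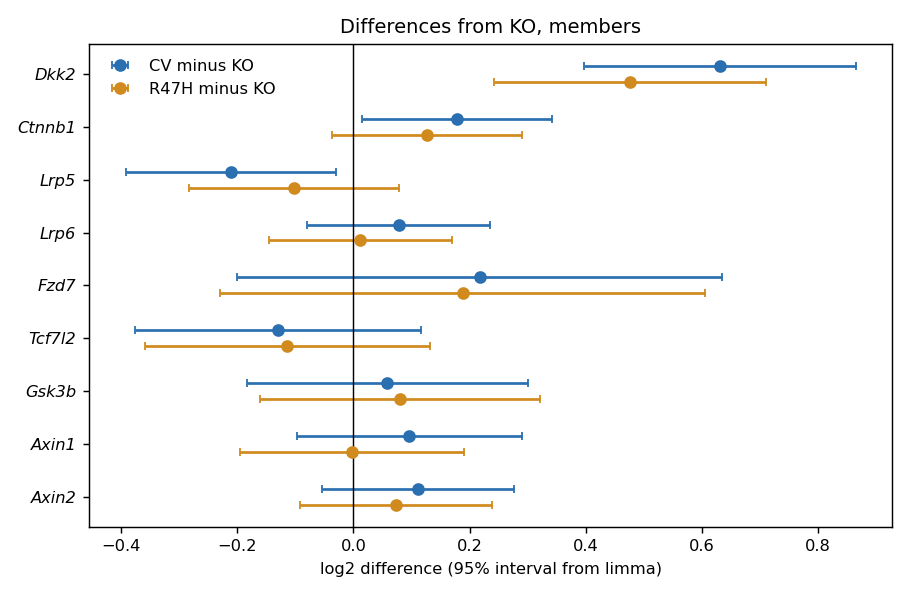
Log2 difference of each gene from KO in CV (blue) and R47H (orange), with 95% intervals from limma; both comparisons use the same KO arrays. The intervals of Dkk2 lie above 0 in both, but Dkk2 was picked on CV minus KO, so its interval there is no test. Its R47H interval uses KO arrays that helped to choose it, and that difference did not pass over all genes (limma adjusted p = 0.225). The intervals of Lrp6, Fzd7, Tcf7l2, Gsk3b, Axin1 and Axin2 include 0 in both.

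The wider pathway was taken from 8 lists with 125 genes, of which 124 had a probe set and 73 were tested. In CV minus KO 2 were called higher (Dkk2 and Cd44) and 1 lower (Fzd8), against the same 1.21% of all genes. Dkk2 was selected on this contrast, and the lists were chosen with earlier results of these data known. The calls of Cd44 and Fzd8 are therefore given as a description, and nothing is read from their count. The median difference was -0.01, where the median of all tested genes was -0.02. An unadjusted p under 0.05 was reached by 12 of the 73 (16.4%), 3 higher (Dkk2 among them) and 9 lower, against 13.2% of all genes. In R47H minus KO 0 were called, at a median of -0.01. There 4, Dkk2 among them, had an unadjusted p under 0.05 (5.48%, against 5.68% of all genes). In R47H minus CV 1 of the 73, Cd44, was called (1.37%, against 0.797% of all genes). There 5 had an unadjusted p under 0.05 (6.85%, against 12.4% of all genes). The 51 list genes below the filter had mean levels of 3.52 to 5.21. With all 19938 genes fitted and no filter, 0 of these 51 were called by limma in either comparison with KO. Over all genes of that fit 100 were called in CV minus KO and 8 in R47H minus KO. Of the 51, 3 in CV and 2 in R47H had an unadjusted p under 0.05. The share of all genes at that level was not counted in the fit without a filter, so nothing is read from these counts.

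Among 9 tested receptors 0 rose and 1, Fzd8, fell in CV, where 1.21% of all genes were called. Fzd8 (10453738), a Frizzled that was not among the chosen genes, read 6.24, 6.15 and 5.93 in KO, 5.74, 5.52 and 5.68 in R47H, and 5.74, 5.50 and 5.39 in CV. All R47H and CV mice lay below all KO mice, and R47H and CV overlapped. It fell by 0.56 in CV (SE 0.08, 95% interval -0.75 to -0.37, limma adjusted p = 0.0166). In R47H the difference was -0.46 ± 0.08 and did not pass (adjusted p = 0.136). R47H minus CV was 0.10 (95% interval -0.09 to 0.29). The call for Fzd8, CV minus KO, was lost without KO mouse 1 or 2 or any 1 CV mouse (adjusted p from 0.0603 to 0.0867), without sex in the model (0.0729), with only the compared groups (0.0797) and with the neutrophil score (difference -0.47, adjusted p = 0.256). Ror2, a receptor for Wnt5a, stood at -0.17 ± 0.09 in R47H minus KO (adjusted p = 0.907).

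Of 6 tested target genes 1, Cd44, rose in CV and 0 fell, where 1.21% of all genes were called. Cd44, a hyaluronan receptor that leukocytes of many kinds also express, read 5.96, 5.29 and 6.17 in KO, 6.34, 5.91 and 6.06 in R47H, and 7.53, 7.23 and 7.22 in CV. The CV mice stood above all others, and R47H overlapped with KO. It rose by 1.52 in CV minus KO (SE 0.19, 2.87-fold, limma adjusted p = 0.00617), and R47H minus KO was 0.30 ± 0.19 (adjusted p = 0.933). It was lower in R47H than in CV by a difference of -1.22 ± 0.19 (adjusted p = 0.0307). With the neutrophil score in the model CV minus KO was 1.03 (adjusted p = 0.0121) and R47H minus CV -0.71 (adjusted p = 0.138). The CV minus KO call was lost with only the compared groups (adjusted p = 0.0639). The call for Cd44, R47H minus CV, was lost with no filter on the mean (adjusted p = 0.0568) and without KO mouse 1 or any 1 R47H or CV mouse (adjusted p up to 0.164). The other 5 tested targets, Axin2, Znrf3, Apcdd1, Myc and Ccnd1, were not called in any comparison. Apcdd1, a membrane inhibitor of Wnt signalling, stood at -0.21 ± 0.13 in CV, and Znrf3, which removes Frizzled from the surface, at -0.24 ± 0.11 in R47H.

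Of 5 tested secreted or surface inhibitors 1 was called in CV (1.21% of all genes) and 0 in R47H (0.0834%). The 1 is Dkk2, which was selected on CV minus KO, so the count restates the choice. Kremen1, a Dickkopf receptor, stood at 0.14 ± 0.07 in R47H minus KO (limma adjusted p = 0.905). The other Dickkopf genes, Dkk1, Dkk3, Dkk4 and Dkkl1, were below the filter, with means of 5.03, 5.19, 5.21 and 4.05. Dkk1 read 4.83 to 5.08 in KO and 5.08 to 5.22 in CV, with 1 value in common. Its CV minus KO difference in the fit without a filter was 0.20 ± 0.07 (limma unadjusted p = 0.0241, adjusted p = 0.426). In that fit Dkk3 stood at -0.10 ± 0.11, Dkk4 at -0.13 ± 0.08 and Dkkl1 at 0.15 ± 0.15 in CV minus KO.

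**Figure D4:**
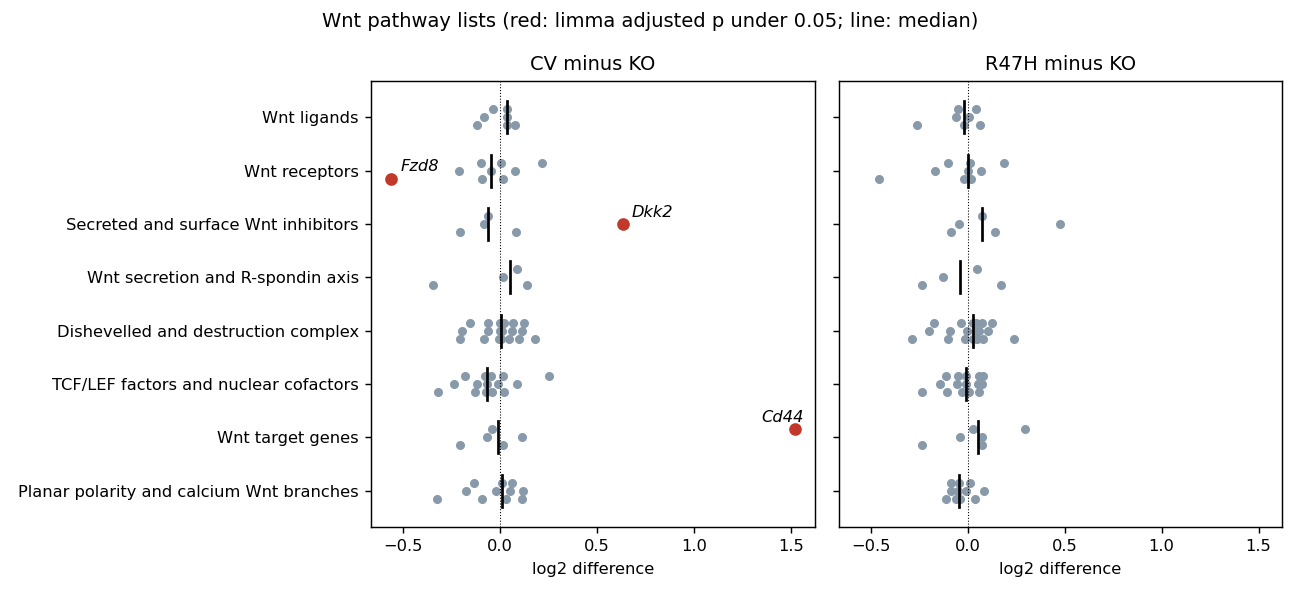
Log2 differences from KO of the tested genes of 8 Wnt pathway lists in CV (left) and R47H (right), 1 point per gene, black lines at each list's median; red points passed limma's adjusted p under 0.05. Fzd8, Dkk2 and Cd44 are the red points in CV, and R47H has none.

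The remaining lists held no called gene in any of the 3 comparisons. Of 19 Wnt ligands 7 were tested, with medians of 0.03 in CV and -0.02 in R47H. In either, 0 had an unadjusted p under 0.05 (limma), against 13.2% of all genes in CV and 5.68% in R47H. Wnt5b stood at -0.08 ± 0.06 in CV and -0.06 ± 0.06 in R47H. Wnt2b stood at -0.12 ± 0.13 in CV and -0.26 ± 0.13 in R47H. Among 4 tested genes of Wnt secretion and the R-spondin axis 1, Porcn, had an unadjusted p under 0.05 in CV, against 13.2% of all genes. Porcn, the acyltransferase that lipidates Wnt proteins, read 6.65, 6.61 and 6.29 in KO, 6.54, 6.32 and 6.30 in R47H, and 6.18, 6.19 and 6.14 in CV. All CV mice lay below all KO mice, where 14% of all genes had groups that did not overlap. KO mouse 3 was the lowest of its group. The difference was -0.35 ± 0.09 (limma adjusted p = 0.143), and without KO mouse 3 it was -0.44 (adjusted p = 0.049). With the neutrophil score for Porcn, CV minus KO, it was -0.17 (adjusted p = 0.87). Rspo1, a secreted enhancer of Wnt signalling, stood at 0.14 ± 0.10 in CV and 0.17 ± 0.10 in R47H.

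The counts at an unadjusted p under 0.05 that follow stand against 13.2% of all genes in CV and 5.68% in R47H. Of 19 tested genes of Dishevelled and the destruction complex 3 had an unadjusted p under 0.05 in CV, Ctnnb1 higher and Tnks2 and Gsk3a lower, at a list median of 0.01. Tnks2, a tankyrase that marks Axin for removal, stood at -0.21 ± 0.07, and Gsk3a, the paralog of Gsk3b, at -0.20 ± 0.07 (limma adjusted p = 0.268 and 0.289). In R47H 2 did, both lower: Frat2, which binds Gsk3, at -0.29 ± 0.09 and casein kinase Csnk1e at -0.18 ± 0.07 (adjusted p = 0.598 and 0.804). Of 15 tested TCF/LEF factors and nuclear cofactors 3 (20% of the list) had an unadjusted p under 0.05 in CV, all lower, at a median of -0.07. The co-repressor Tle3 stood at -0.24 ± 0.07 and the β-catenin cofactor Bcl9l at -0.32 ± 0.12 in CV (adjusted p = 0.202 and 0.271). In R47H 0 did, with Bcl9l at -0.24 ± 0.12 and the co-repressor Ctbp1 at -0.14 ± 0.07. Of 11 tested genes of the planar polarity and calcium branches 1 did in CV, the calcium-responsive factor Nfatc3 at -0.18 ± 0.07 (adjusted p = 0.333). The kinase Nlk stood at -0.33 ± 0.14 in CV, and in R47H Nfatc3 stood at 0.08 ± 0.07 and the cadherin Celsr1 at -0.08 ± 0.10.

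The genes whose log2 values ran most like those of Dkk2 over the 9 mice were not Wnt pathway genes. By Pearson correlation over 10794 other tested genes, the 8 highest were Gpnmb (0.95), a glycoprotein of phagocytic macrophages, Ptchd1 (0.93), Shtn1 (0.93), which encodes shootin-1, Ndufaf3 (0.92), an assembly factor of respiratory complex I, Pgap1 (0.92), which remodels GPI anchors, Phlda1 (0.90), Nlrc3 (0.90) and the VEGF receptor Flt1 (0.90), which is also on the endothelial marker list. The 4 lowest were Spry1 (-0.91), an inhibitor of receptor tyrosine kinase signalling, Stat5a (-0.90), Thap3 (-0.90) and paxillin, Pxn (-0.90). These are descriptions: all points share the 9 arrays and the 3 genotypes, and Dkk2 was selected on the genotype difference. After each group's mean was subtracted, the correlations with Dkk2 were 0.64 for Gpnmb, 0.33 for Phlda1, 0.93 for Ndufaf3 and 0.95 for Nlrc3.

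Gpnmb spread far more widely than Dkk2 and in the same order of groups. It read 7.47, 6.89 and 5.74 in KO, 10.04, 9.16 and 9.14 in R47H, and 11.24, 10.86 and 10.97 in CV, so that no groups overlapped. Ptchd1, a Patched-domain membrane protein, read 7.46, 7.49 and 7.53 in KO, 8.33, 7.89 and 7.88 in R47H, and 8.27, 8.12 and 8.04 in CV. In R47H the female was the highest of its group for Dkk2, Gpnmb, Ptchd1, Shtn1, Ndufaf3, Pgap1, Nlrc3 and Flt1, but not for Phlda1. These genes were taken for their likeness to Dkk2 over the same mice, so a shared highest mouse partly follows from that choice. Among the other 8 chosen genes the correlation with Dkk2 was 0.72 for Ctnnb1, 0.55 for Axin2 and -0.62 for Lrp5. After each group's mean was subtracted these were 0.55, 0.11 and 0.37, so the sign turned for Lrp5. Axin1 went from 0.09 to -0.71 by that step, and Tcf7l2 from -0.48 to -0.52. Before it, Ctnnb1 had rank 199 of the 10794 genes.

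**Figure D5:**
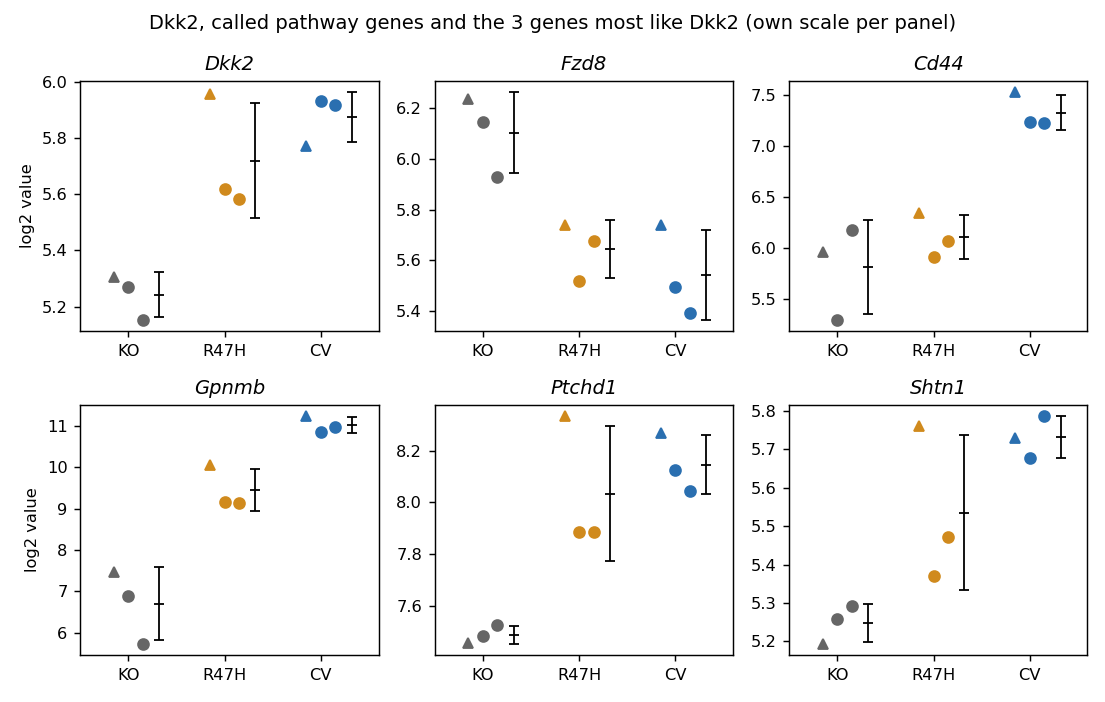
Log2 values by mouse (triangles, females; circles, males) with group mean and SD, each panel on its own scale, for Dkk2, the pathway genes Fzd8 and Cd44, and the 3 genes with the highest correlation with Dkk2. Fzd8 is higher in all KO mice than in all others, and Cd44 is higher in all CV mice than in all others. In Ptchd1 and Shtn1, picked for likeness to Dkk2, the R47H female stands above the R47H males, as in Dkk2.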

How the data were processed

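Expression was measured on 9 arrays, 1 per mouse. The authors deposited 1 log2 value for each of 35556 probe sets. The log2 scale was read from the values (1.31 to 13.9), while background correction, summarisation and normalization were not stated. On 51.9% of probe sets at least 2 arrays held exactly equal values. Genes were named from the platform annotation where a probe set listed 1 symbol (21789 probe sets, with 1621 listing several and 12146 unnamed here), and the probe set with the highest mean stood for its gene. Genes with a mean at or above 5.31, the 50th percentile of all probe sets, were tested (10795 of 19938). limma 3.58.1 in R 4.3.3 (lmFit, eBayes) was fitted to all 9 arrays with terms for genotype and sex (5 residual and 3.73 prior degrees of freedom), two-sided, with Benjamini-Hochberg adjustment over all tested genes and calls under 0.05. It was first tested on simulated data. Each mouse is a separate animal. The number of arrays limits the precision, and cross-hybridisation between paralogs was not checked.

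Members and lists were chosen with earlier results of these data known. Named genes were the 9 members, list genes called in any comparison, the 2 genes of each list with the smallest p in CV minus KO and in R47H minus KO, the other Dickkopf genes, and the 8 highest and 4 lowest correlations with Dkk2, leaving out predicted genes, olfactory receptors and Riken names. Alternatives were the model without sex, with mouse number as a block, with the mean of 13 neutrophil markers, or with the compared groups alone. Other alternatives were other filters (none, 75th percentile), probe set rules, eBayes options and scalings, and leaving out each array.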

Additional observations from a re-analysis of the deposited data

Results flagged for a closer look

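Dkk2 in R47H minus CV differed in direction between the sexes: the R47H female lay 0.18 above the CV female, while each R47H male lay below each CV male, by differences of -0.35 to -0.30. With 1 female in each group this difference between sexes was not tested.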

How the results depend on the processing

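Fits were repeated under 11 other settings and without each array. The CV minus KO count of 1 called member was 0 with the filter at the 75th percentile, which removes Dkk2, with the neutrophil score and with only the compared groups, and 0 to 1 over single removals. The Dkk2 difference itself ran from 0.58 to 0.76. The 3 called list genes became 0 at the 75th percentile, a filter that removes Dkk2, Fzd8 and Cd44 before testing. Their count became 1 with the neutrophil score, 0 with only the compared groups, and 1 to 3 over single removals. The 1 list gene called in R47H minus CV, Cd44, became 0 without a filter and with the neutrophil score, and 0 to 1 over removals. At the 75th percentile the count was 0 because that filter removes Cd44. Signs turned only where differences were uncalled. With the neutrophil score these were Lrp5, R47H minus CV (-0.045), Fzd7, R47H minus CV (0.37), Fzd7, CV minus KO (-0.16), Gsk3b, CV minus KO (-0.058) and Wnt2b, CV minus KO (0.0054). Median centring turned Fzd7, R47H minus CV (0.0031) and Axin1, R47H minus KO (0.0045), and quantile normalization Axin2, R47H minus CV (0.0026). Over single removals CV minus KO ranged from -0.019 to 0.43 for Fzd7 and -0.055 to 0.13 for Gsk3b. R47H minus KO ranged from -0.030 to 0.049 for Lrp6, -0.048 to 0.40 for Fzd7, -0.033 to 0.15 for Gsk3b, -0.073 to 0.088 for Axin1 and -0.16 to 0.031 for Celsr1. R47H minus CV ranged from -0.11 to 0.059 for Fzd7, -0.10 to 0.087 for Tcf7l2 and -0.055 to 0.081 for Gsk3b. The causes were not tested. With mouse number as a replicate block the counts were 1 member and 3 list genes in CV minus KO, 0 and 0 in R47H minus KO, and 0 and 1 in R47H minus CV, as without it. Deviations of same-numbered mice correlated at -0.04 to 0.36, over 0.1 in 7 of 9 pairs, and those of different numbers at -0.39 to 0.21. All 3 pairs between R47H and CV were over 0.1 (0.33, 0.20 and 0.20), while mouse 2 of KO was not with either group (0.00094 and -0.04). Mouse 1 is the female of each group and sex was left in these deviations, so its pairs cannot tell pairing from sex. KO mouse 3 also passed 0.1 with CV mouse 2 (0.21) and with R47H mouse 2 (0.20). Different-numbered mice of R47H and CV ran from -0.19 to -0.0017. Whether the numbers mark paired mice was not tested further.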
